A study of Mus musculus with 14 samples.

Results

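The let-7 family is a group of closely related microRNAs (miRNAs), the small RNAs that pair with messenger RNAs and lower their translation and stability. The 10 lines of it described here are mmu-let-7a-5p, mmu-let-7b-5p, mmu-let-7d-5p, mmu-let-7d-3p, mmu-let-7f-5p, mmu-let-7g-5p, mmu-let-7i-5p, mmu-let-7j, mmu-let-7k and mmu-miR-98-5p, taken by name out of the 1250 lines of a table of counts per mature miRNA. The prefix for mouse is left out hereafter. The suffixes 5p and 3p name the arm of the hairpin precursor that a mature miRNA comes from. The rule of choice used names alone, but it was set with earlier results of these data known. The lines let-7c-5p and let-7e-5p, which carry the same seed, appear only as relatives.

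The study sequenced small RNA of mouse macrophages whose source is given as bone marrow, with excised bone as the tissue, under a title on macrophage exosomes, atherosclerosis and their miRNA cargo. There were 4 libraries of exosomes, vesicles shed into the medium, of stimulated macrophages and 4 of exosomes of control macrophages. Lysed cells were sequenced in 3 libraries of stimulated and 3 of control macrophages. Stimulation was with IL4 by the titles, an interleukin known to move macrophages towards an alternative, tissue-repairing state, and control libraries are labelled wild type. Dose, duration, mouse strain, age and sex are not given in the labels, nor is how the bone marrow cells became macrophages. Exosomes were taken from culture supernatant on an OptiPrep density gradient. Each title also carries a date. In exosomes and in lysates alike a date covers 1 IL4 and 1 control library, and the compartments have no date in common. Whether replicates are separate mice or cultures is not in the labels, and the p-values below therefore rest on a spread between libraries that could be technical.

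Members of the let-7 family were found in nematodes as timers of development and are known in mammals for holding cells in a differentiated state. Their targets include the RNA-binding protein LIN28, which in turn binds let-7 precursors and blocks their processing, and growth regulators such as HMGA2, MYC and RAS. Target choice rests largely on the seed, bases 2 to 8 of the mature strand, so members with 1 seed share many predicted targets. In macrophages let-7 miRNAs are known as regulators of Toll-like receptor signalling and of interleukin-6, and extracellular let-7b can activate the RNA receptor TLR7.

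All 10 lines matched a mature sequence in RefSeq (mouse build GRCm38.p6). They are shown because near-identity within the family bears on how their counts can be read. Seeds are in capitals.
let-7a-5p: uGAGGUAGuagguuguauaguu
let-7b-5p: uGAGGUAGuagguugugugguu
let-7d-5p: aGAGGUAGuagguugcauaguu
let-7f-5p: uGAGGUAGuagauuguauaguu
let-7g-5p: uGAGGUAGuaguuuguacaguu
let-7i-5p: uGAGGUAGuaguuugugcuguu
miR-98-5p: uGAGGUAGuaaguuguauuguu
let-7k: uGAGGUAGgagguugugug
let-7j: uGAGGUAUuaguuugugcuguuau
let-7d-3p: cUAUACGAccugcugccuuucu

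The 8 lines let-7a-5p, let-7b-5p, let-7d-5p, let-7f-5p, let-7g-5p, let-7i-5p, let-7k and miR-98-5p share the seed GAGGUAG. The seed of let-7j differs from it in its last base, and let-7d-3p, from the opposite arm of the let-7d hairpin, has an unrelated seed. With positions counted from the 5′ end, let-7a-5p and let-7f-5p differ by G12A alone. The pair let-7a-5p and let-7b-5p differ by A17G and A19G, and let-7a-5p and miR-98-5p by G11A and A19U. The mature let-7j equals let-7i-5p but for G8U and extra bases at its 3′ end, and let-7k equals the first 19 bases of let-7b-5p but for U9G. How the authors' counting assigned a read that fits several of these is not given, so the division of counts between lines 1 base apart is uncertain. The relative let-7c-5p is 1 base from let-7b-5p, by G17A, and from let-7a-5p, by A19G, and let-7e-5p is 1 base from let-7a-5p, by U9G, so this limit holds for the let-7b-5p values too. The let-7d arms have no neighbour 1 base apart and come from 1 hairpin, shown here 5′ to 3′ with both mature arms in capitals.
let-7d hairpin: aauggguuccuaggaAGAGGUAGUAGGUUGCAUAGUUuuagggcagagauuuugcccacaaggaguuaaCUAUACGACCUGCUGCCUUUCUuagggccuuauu

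In GRCm38.p6 the let-7d hairpin lies at chr13:48536012-48536114 on the minus strand. It forms a cluster of 2261 bases with the let-7a-1 and let-7f-1 hairpins (chr13:48536012-48538272), which GENCODE places in an exon of the long non-coding RNA 6720427I07Rik. The let-7b hairpin lies at chr15:85707319-85707403 on the plus strand, in an exon of the transcript Lncppara, and shares a span of 801 bases with let-7c-2. Both let-7f-2 and miR-98 lie in an intron of Huwe1, a ubiquitin ligase gene, within 976 bases (chrX:151912346-151913321). The let-7g hairpin sits in an intron of Wdr82 (chr9:106178840-106178927), let-7a-2 in an intron of 3110039I08Rik (chr9:41536716-41536811), and let-7i in an exon of the pseudogene D630033A02Rik (chr10:122985640-122985724). The let-7j hairpin (chr3:140028249-140028370) and the let-7k hairpin (chr5:147283189-147283298) overlap no other annotated gene. Mature let-7f-5p is made from 2 hairpins on different chromosomes, so its counts cannot be tied to either host transcript. The let-7a-1 and let-7a-2 hairpins also lie on different chromosomes, so the let-7a-5p counts cannot be tied to either of their host transcripts.

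Total counts were 28417 to 411671 in the 8 exosome libraries and 3941480 to 6792079 in the 6 lysates. At these totals 1 count stood for 2.43 to 35.2 CPM (counts divided by the library total and scaled up) in exosomes and for 0.147 to 0.254 CPM in lysates. The macrophage and myeloid markers miR-223-3p, miR-142a-3p, miR-142a-5p and miR-511-3p were counted in every group, with a summed level of 16070 to 20440 CPM in IL4 exosomes, 26990 to 37040 CPM in control exosomes, 12260 to 18450 CPM in IL4 lysates and 26740 to 31730 CPM in control lysates. Markers of other cell types stood apart between compartments. The 3 erythroid lines summed to 21470 to 29920 CPM in IL4 exosomes and 28430 to 54470 CPM in control exosomes, against 118.7 to 151.0 CPM in IL4 lysates and 116.6 to 210.1 CPM in control lysates.

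The 10 lines made up a large part of all miRNA counts in every library. Their summed share was 14.75%, 18.31%, 18.34% and 26.79% in the IL4 exosomes (replicates 1 to 4) and 17.60%, 16.65%, 12.97% and 24.77% in the control exosomes (replicates 1 to 4). It was 25.75%, 20.88% and 18.42% in IL4 lysates and 29.01%, 28.15% and 26.26% in control lysates. Both libraries of exosome replicate 4, dated 29 December, held the highest share of their group. The means were 19.6% ± 5.11 (SD, n = 4) in IL4 exosomes, 17.99% ± 4.94 (n = 4) in control exosomes, 21.7% ± 3.73 (n = 3) in IL4 lysates and 27.8% ± 1.40 (n = 3) in control lysates. The exosome groups overlapped throughout, and every control lysate lay above every IL4 lysate, although the nearest values were 25.75% with IL4 and 26.26% in controls. A share depends on what else was counted: with miR-21a-5p, the most abundant line, left out of the total, the means were 26.0% in IL4 exosomes, 22.7% in control exosomes, 35.1% in IL4 lysates and 39.1% in control lysates. The lysate groups then overlapped, at 38.12%, 34.48% and 32.60% with IL4 and 38.82%, 41.14% and 37.18% in controls.

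Most of this share came from let-7f-5p and let-7a-5p, which ranked 2nd and 3rd by mean CPM among all lines in each of the 4 groups. Known targets of let-7f in macrophages include the NF-kB inhibitor A20. The let-7f-5p level was 61221, 79227, 68436 and 118521 CPM in the IL4 exosomes (replicates 1 to 4) and 71084, 63552, 43457 and 105944 CPM in the control exosomes (replicates 1 to 4). The lysates gave 129257, 102657 and 93530 CPM with IL4 and 146157, 152223 and 134499 CPM in controls. No control exosome library reached the lowest control lysate, whereas the IL4 exosomes and IL4 lysates overlapped through exosome replicate 4. The let-7a-5p level was 47090, 59226, 64224 and 89028 CPM in IL4 exosomes and 60281, 56233, 40608 and 84646 CPM in control exosomes. It was 73451, 58218 and 52146 CPM in IL4 lysates and 83977, 73258 and 76225 CPM in control lysates. For let-7a-5p all 4 groups overlapped in CPM.

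**Figure D1:**
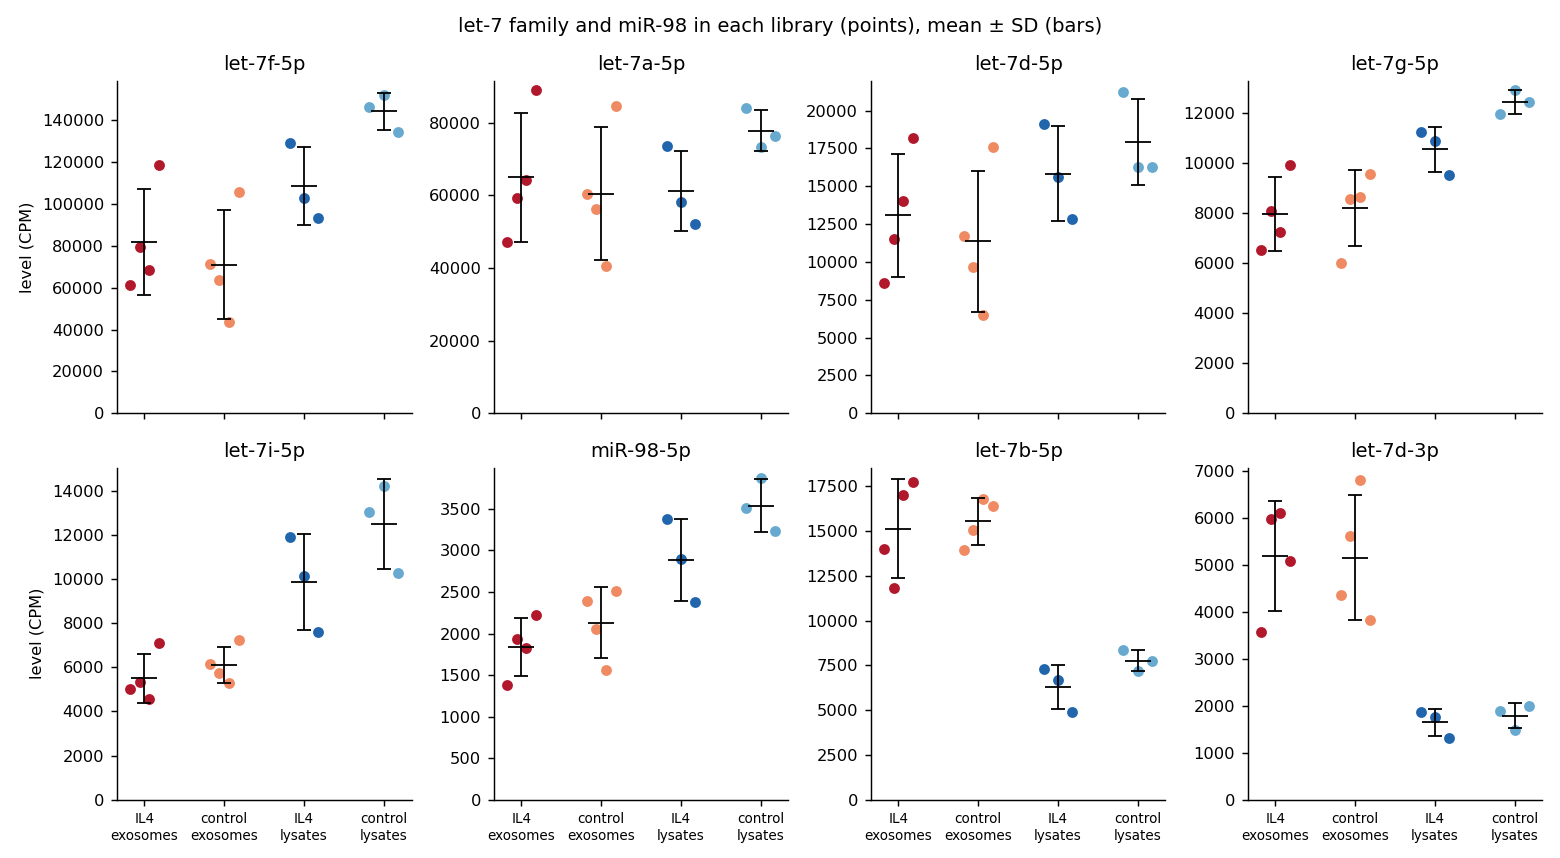
Level of 8 members in CPM (y axis, each panel from 0) in IL4 exosomes, control exosomes, IL4 lysates and control lysates (x axis); points are libraries in the order of their replicate numbers and bars are the mean ± SD (n = 4, 4, 3 and 3). In the panels of let-7b-5p and let-7d-3p every exosome library lies above every lysate, and in those of let-7i-5p and miR-98-5p every exosome library lies below every lysate of its treatment.

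Because the members' shares of their own sum need no scaling between libraries, the make-up of the family could be compared between compartments directly. The let-7b-5p share was 7.96% ± 1.65 in IL4 exosomes and 9.13% ± 2.72 in control exosomes (SD, n = 4 each), against 2.90% ± 0.278 in IL4 lysates and 2.79% ± 0.206 in control lysates (n = 3 each). The lowest exosome library, at 6.45%, lay above the highest lysate, at 3.21%. The let-7d-3p share was 2.73% ± 0.691 in IL4 exosomes and 3.16% ± 1.58 in control exosomes, against 0.761% ± 0.0682 in IL4 lysates and 0.645% ± 0.115 in control lysates. Here too the lowest exosome library, at 1.545%, lay above the highest lysate, at 0.840%. The opposite held for let-7f-5p, with 41.6% ± 3.07 in IL4 exosomes and 38.7% ± 3.94 in control exosomes, against 50.04% ± 0.817 in IL4 lysates and 51.9% ± 1.94 in control lysates. Its highest exosome library, at 44.25%, lay below its lowest lysate, at 49.2%.

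The let-7a-5p share lay higher in the vesicles, with 33.1% ± 1.37 in IL4 exosomes and 33.4% ± 1.39 in control exosomes, against 28.2% ± 0.328 in IL4 lysates and 28.0% ± 1.71 in control lysates. Shares of let-7i-5p were 2.86% ± 0.403 in IL4 exosomes and 3.49% ± 0.482 in control exosomes, against 4.53% ± 0.381 in IL4 lysates and 4.48% ± 0.574 in control lysates. No exosome library overlapped a lysate in its let-7a-5p share, and the let-7i-5p shares overlapped in control macrophages. Lines with 1 seed thus differed in the direction in which their part of the family moved between compartments. The let-7d-5p and let-7g-5p shares overlapped between compartments, at 5.02% to 7.65% and 3.42% to 6.67% over the exosome libraries. The miR-98-5p share was 0.832% to 1.05% in IL4 exosomes and 1.015% to 1.36% in control exosomes, against 1.29% to 1.39% in IL4 lysates and 1.21% to 1.38% in control lysates. As shares add up to a whole, a higher share of 1 member lowers those of the others. No test was run on the shares.

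**Figure D2:**
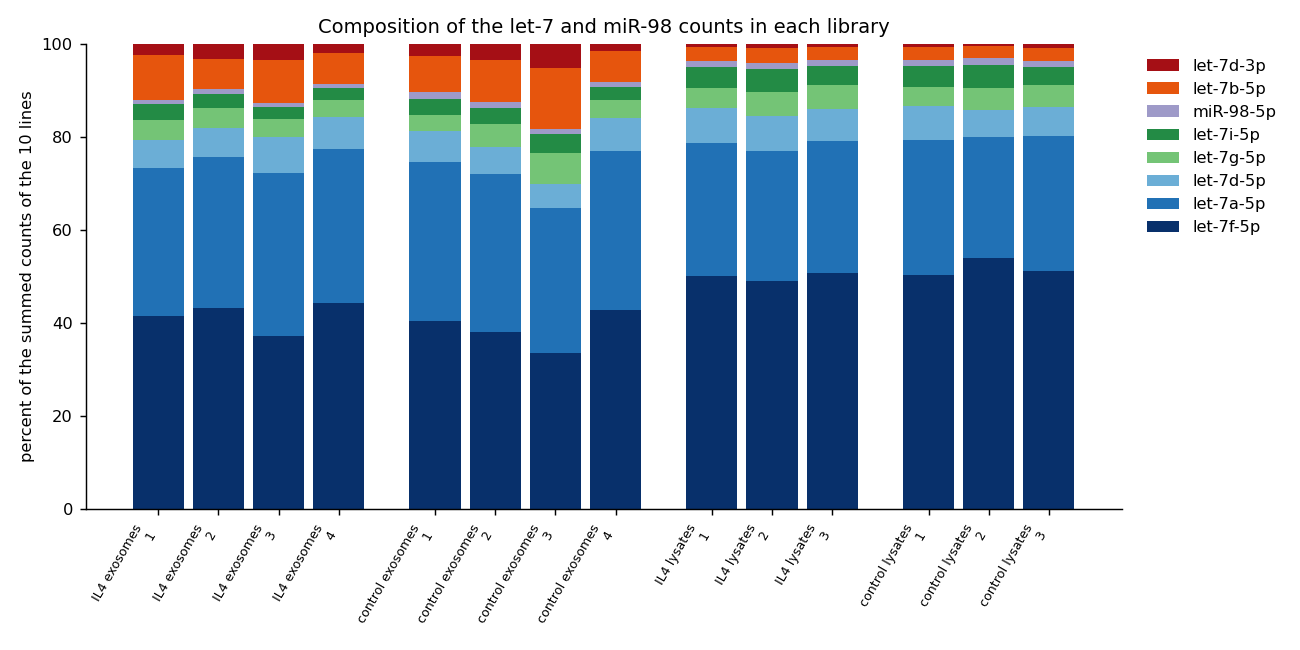
Percent of the summed counts of the 10 lines (y axis, 0 to 100) taken by each member in each of the 14 libraries (x axis, 1 bar a library, grouped as IL4 exosomes, control exosomes, IL4 lysates and control lysates); let-7j and let-7k are too low to be drawn. The orange let-7b-5p and red let-7d-3p segments are wider in every exosome bar than in any lysate bar, and the dark blue let-7f-5p segment is shorter.

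The order of the members within a library changed with the compartment in the same way. The let-7b-5p level was above let-7i-5p and let-7g-5p in 8 of 8 exosome libraries and in 0 of 6 lysates, and above let-7d-5p in 6 of 8 exosome libraries and in 0 of 6 lysates. The ratio of let-7b-5p to let-7i-5p was 2.21 to 3.75 in exosomes and 0.506 to 0.753 in lysates. The level of let-7d-3p was above that of miR-98-5p in 8 of 8 exosome libraries and in 0 of 6 lysates. The top of the order did not change: let-7f-5p exceeded let-7a-5p in all 14 libraries, by 1.07 to 1.34 times in exosomes and by 1.74 to 2.08 times in lysates. Neighbours whose order was mixed were let-7g-5p and let-7i-5p, with let-7g-5p above in 7 of 8 exosome libraries and 3 of 6 lysates, and let-7i-5p and let-7d-3p in exosomes, with let-7i-5p above in 5 of 8.

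Exosomes were then set against lysates over the whole table, with 338 lines tested and 9 of the 10 members among them (let-7k was below the filter on low counts). In IL4 macrophages let-7b-5p and let-7d-3p were higher in exosomes and let-7d-5p, let-7f-5p, let-7g-5p, let-7i-5p and miR-98-5p were lower, so that 7 of 9 tested members passed an adjusted p of 0.05 where 49.4% of all tested lines did (30.2% higher and 19.2% lower). In control macrophages let-7d-3p was higher and let-7a-5p, let-7d-5p, let-7f-5p, let-7g-5p, let-7i-5p and miR-98-5p were lower, again 7 of 9 tested members where 50.9% of all tested lines passed (29.3% higher and 21.6% lower). The members' median log2 fold change was -0.93 in IL4 macrophages, against -0.01 over all tested lines, and -1.40 in control macrophages, against -0.18 over all tested lines. Both comparisons come from 1 fit but share no library. Fold changes are on the scale of TMM factors, which set the bulk of all miRNAs level between libraries, so they differ from ratios of CPM. In such bulk samples a change in the number of cells or vesicles of a type cannot be told apart from a change in the amount of RNA in each.

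The let-7i-5p line showed the lowest fold change of the 9 in IL4 macrophages and in control macrophages. It was at 5017, 5332, 4545 and 7090 CPM in IL4 exosomes, against 11899, 10140 and 7573 CPM in IL4 lysates, with a fitted log2 fold change of -1.48 (SE 0.244, adjusted p = 0.000283 in edgeR's quasi-likelihood test). Control exosomes had 6158, 5719, 5306 and 7218 CPM, against 13020, 14224 and 10258 CPM in control lysates, and the fitted log2 fold change was -1.82 (SE 0.245, adjusted p = 4.53e-05 in the same test). No exosome library reached any lysate. In CPM 2 of 10 members, let-7i-5p and miR-98-5p, were lower without overlap in IL4 macrophages, as were 23.7% of lines with 10 or more counts, and 4 of 10, with let-7f-5p and let-7g-5p, in control macrophages, as were 30.5%. The miR-98-5p line, whose hairpin lies beside let-7f-2, had 1379, 1929, 1827 and 2229 CPM in IL4 exosomes, against 3379, 2893 and 2383 CPM in IL4 lysates (log2 fold change -1.31, SE 0.249, adjusted p = 0.000738). Control exosomes had 2393, 2060, 1558 and 2515 CPM, against 3506, 3873 and 3240 CPM in control lysates (log2 fold change -1.52, SE 0.251, adjusted p = 0.000223). These groups did not overlap within a treatment either.

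The let-7g-5p level was 6516, 8092, 7227 and 9931 CPM in IL4 exosomes, against 11240, 10860 and 9520 CPM in IL4 lysates, and 6018, 8569, 8642 and 9542 CPM in control exosomes, against 11966, 12921 and 12410 CPM in control lysates. Only IL4 exosome replicate 4 exceeded a lysate of its treatment. The log2 fold change of let-7g-5p was -1.09 in IL4 macrophages (SE 0.225, adjusted p = 0.00133) and -1.41 in control macrophages (SE 0.226, adjusted p = 0.000185). For let-7f-5p it was -1.06 (SE 0.310, adjusted p = 0.0109) in IL4 macrophages and -1.79 (SE 0.313, adjusted p = 0.000327) in control macrophages. For let-7a-5p it was -0.58 (SE 0.270, adjusted p = 0.0919) in IL4 macrophages, which missed the threshold, and -1.13 (SE 0.270, adjusted p = 0.00280) in control macrophages, which passed it. The difference between these values was tested as an interaction and was not called (0.55, SE 0.384, unadjusted p = 0.172).

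For let-7d-5p, IL4 exosomes had 8635, 11494, 14038 and 18220 CPM, against 19119, 15586 and 12816 CPM in IL4 lysates, and control exosomes had 11683, 9654, 6512 and 17580 CPM, against 21220, 16303 and 16302 CPM in control lysates. These groups overlapped in both treatments. The log2 fold change of let-7d-5p was -0.93 in IL4 macrophages (SE 0.316, adjusted p = 0.0225) and -1.40 in control macrophages (SE 0.317, adjusted p = 0.00199). The IL4 call of let-7d-5p ended without IL4 exosome replicate 1, 2 or 3 and without IL4 lysate replicate 1, 2 or 3, with values of -0.89 to -0.74 and adjusted p of 0.0622 to 0.117. It also ended under each of the other 4 scalings, at -0.27 with library-size scaling (adjusted p = 0.519), -0.67 with RLE factors (adjusted p = 0.100), -0.67 in DESeq2 (adjusted p = 0.0987) and -0.77 with TMM factors computed without the let-7 lines (adjusted p = 0.0648). The control call of let-7d-5p ended with library-size scaling (-0.66, adjusted p = 0.107).

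The lines that ran the other way were let-7b-5p and let-7d-3p. For let-7b-5p, IL4 exosomes had 13971, 11802, 17021 and 17738 CPM, against 7278, 6700 and 4916 CPM in IL4 lysates. Control exosomes had 13935, 15060, 16757 and 16377 CPM, against 8346, 7194 and 7719 CPM in control lysates. Every exosome library lay above every lysate in CPM. With let-7d-3p and, in IL4 macrophages, let-7k, 3 of 10 members were higher without overlap in IL4 macrophages, as were 15.7% of lines, and 2 of 10 in control macrophages, as were 13.0%. The let-7k position is set by depth: 3 of its 4 IL4 exosome values are 1 count, and 1 count there stands for more CPM than all of its lysate values. On the TMM scale the let-7b-5p log2 fold change was 0.62 in IL4 macrophages (SE 0.208, adjusted p = 0.0220) and 0.22 in control macrophages (SE 0.206, adjusted p = 0.395), which was not called. The control value passed with RLE factors (0.61, adjusted p = 0.0164), in DESeq2 (0.61, adjusted p = 0.00172) and without control exosome replicate 1 (0.51, adjusted p = 0.0401), and it was -0.28 with no filter on low counts (adjusted p = 0.713). The IL4 call of let-7b-5p ended without IL4 lysate replicate 3 (0.64, adjusted p = 0.0525) and with no filter (0.37, adjusted p = 0.510).

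For let-7d-3p, IL4 exosomes had 3578, 5988, 6114 and 5096 CPM, against 1877, 1753 and 1317 CPM in IL4 lysates, and the fitted log2 fold change was 0.97 (SE 0.220, adjusted p = 0.00230). Control exosomes had 4364, 5627, 6803 and 3828 CPM, against 1893, 1484 and 1988 CPM in control lysates, and the fitted log2 fold change was 0.73 (SE 0.219, adjusted p = 0.0116). The lowest exosome library thus held more than the highest lysate in both treatments. Both calls of let-7d-3p ended with no filter on low counts, at 0.73 in IL4 macrophages (adjusted p = 0.181) and 0.27 in control macrophages (adjusted p = 0.814), and the control call also without control lysate replicate 1 (0.63, adjusted p = 0.0527).

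**Figure D3:**
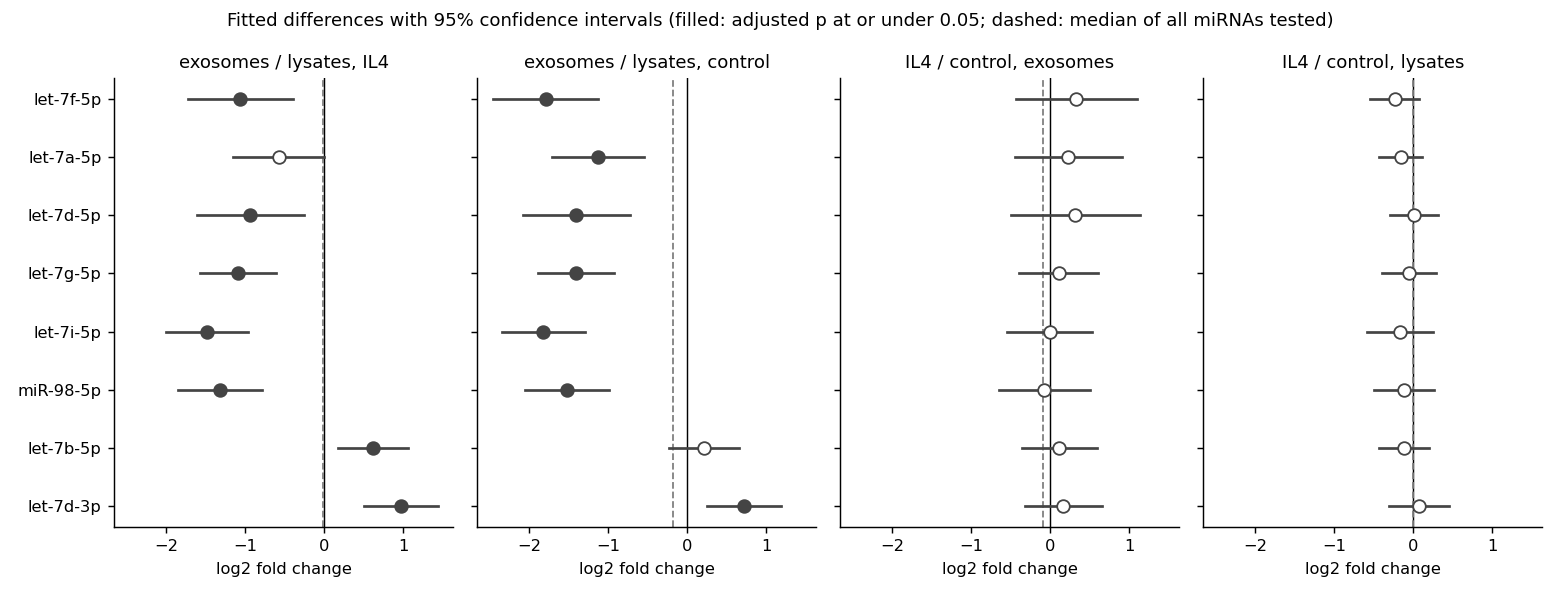
Log2 fold change (x axis) of 8 members (y axis) in 4 comparisons, from left to right exosomes over lysates of IL4 macrophages, exosomes over lysates of control macrophages, IL4 over control exosomes and IL4 over control lysates; points are edgeR estimates with 95% confidence intervals, filled where the adjusted p is at or under 0.05, and the dashed line is the median of all lines tested. In the exosome-over-lysate panels let-7b-5p and let-7d-3p lie to the right of 0 and the others to the left. Points there are filled except let-7a-5p in IL4 macrophages and let-7b-5p in control macrophages. All points of the IL4-over-control panels are open.

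The zero of these exosome-to-lysate fold changes moved with the scaling. A change of scaling moves all lines nearly alike, so the distance of a member from the median of all lines is nearly the same under each by construction, and it is given here as a description. Scaling by library size raised the median of all tested lines by 0.70 in IL4 macrophages and by 0.81 in control macrophages on the log2 scale. The lines called then split into 128 higher and 12 lower in IL4 macrophages, where 65 were lower in the TMM fit, and into 126 higher and 16 lower in control macrophages, where 73 were lower. Relative to the median of all tested lines, let-7i-5p lay at -1.53 to -1.47 in IL4 macrophages and at -1.66 to -1.63 in control macrophages over the 5 scalings tried. In the same terms let-7b-5p lay at 0.58 to 0.63 in IL4 macrophages and at 0.38 to 0.41 in control macrophages. For let-7d-3p the distance was 0.96 to 0.99 in IL4 macrophages and 0.90 to 0.92 in control macrophages, and for let-7f-5p it was -1.09 to -1.05 in IL4 macrophages and -1.65 to -1.59 in control macrophages. Under library-size scaling let-7b-5p and let-7d-3p were called higher in both treatments, let-7i-5p and miR-98-5p lower in both, and let-7f-5p and let-7g-5p lower in control macrophages only, while let-7a-5p was at 0.09 in IL4 macrophages and at -0.36 in control macrophages, neither of them called.

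Markers of other cell types moved with this comparison. Of 20 listed lines for erythroid, epithelial, endothelial, lymphocyte, stromal, muscle and liver origin, 18 were tested, and 15 were called higher in exosomes in IL4 macrophages and 14 in control macrophages, with 0 lower in either. The endothelial lines summed to 4097 to 15920 CPM in IL4 exosomes and 6862 to 27550 CPM in control exosomes, against 13.4 to 32.6 CPM in IL4 lysates and 27.4 to 33.9 CPM in control lysates. The liver marker miR-122-5p was at 1329 to 7676 CPM in IL4 exosomes and 902.2 to 11970 CPM in control exosomes, against 2.91 to 281.1 CPM in IL4 lysates and 8.87 to 209.2 CPM in control lysates. The epithelial lines summed to 354.7 to 105000 CPM in IL4 exosomes and 814.0 to 48880 CPM in control exosomes, with replicate 1 the highest and replicate 3 the lowest of each, against 143.5 to 179.9 CPM in IL4 lysates and 199.8 to 242.2 CPM in control lysates. The sum in IL4 exosome replicate 1 was mostly miR-203-3p, at 100436 CPM. Of 5 epithelial lines tested, miR-203-3p and miR-205-5p were called higher in exosomes in both treatments, and the others were not called. In IL4 and control macrophages the log2 fold changes were 0.35 and 0.155 for miR-200a-3p and -0.62 and -0.57 for miR-200b-3p. For miR-200c-3p they were 0.38 and -0.33. In lysates 1 of the 6 epithelial lines was at 0 in each group, and 1 of the 3 muscle lines was at 0 in control exosomes and in control lysates. The part of these markers in the members' differences was not tested. Between IL4 and control libraries 0 of these 20 lines were called, of 12 tested in exosomes and 16 in lysates. Of the 4 macrophage and myeloid markers 2 were called for IL4 in lysates: IL4 lysates had less miR-223-3p than control lysates (log2 fold change -1.24, adjusted p = 0.00754) and more miR-511-3p (1.42, adjusted p = 0.0117). In exosomes over lysates 2 of these 4 were called lower in IL4 macrophages, miR-142a-3p (-0.74) and miR-511-3p (-3.11), where 19.2% of all tested lines were lower. In control macrophages 3 were lower, miR-223-3p (-0.89), miR-142a-3p (-0.82) and miR-511-3p (-2.51), where 21.6% were. In neither treatment was any of the 4 called higher.

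The let-7d hairpin gave a comparison that does not depend on scaling, as both arms were counted in each library. In most tissues let-7d-5p is known as the guide strand, the arm that is loaded into Argonaute, and let-7d-3p as the less abundant partner. Counts of let-7d-5p per count of let-7d-3p were 2.41, 1.92, 2.30 and 3.58 in the IL4 exosomes (replicates 1 to 4) and 2.68, 1.72, 0.957 and 4.59 in the control exosomes (replicates 1 to 4). The lysates gave 10.2, 8.89 and 9.73 with IL4 and 11.2, 11.0 and 8.20 in controls. Every exosome library lay below every lysate, and in control exosome replicate 3 the 3p arm, at 1354 counts, exceeded the 5p arm, at 1296 counts.

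Between exosomes and lysates the mean log2 ratio of the let-7d arms differed by -1.95 in IL4 macrophages, a ratio 3.86 times lower in exosomes. In control macrophages it differed by -2.25, or 4.74 times. In exact two-sided permutation tests the unadjusted p was 0.0286 in IL4 macrophages, the smallest that 4 libraries against 3 allow, and 0.0571 in control macrophages. Adjusted over the 4 comparisons of the ratio, each was 0.114, so neither passed. Given the p-values of the IL4 comparisons below, even the smallest possible p in both treatments would not have passed this adjustment. The adjusted test therefore cannot decide whether the ratio differed. The ratio of IL4 to control libraries differed by 0.23 on the log2 scale in exosomes (exact permutation p = 0.686) and by -0.07 in lysates (exact permutation p = 0.700, with 0.1 the smallest possible). Without control exosome replicate 3 the exosome difference was -0.15.

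**Figure D4:**
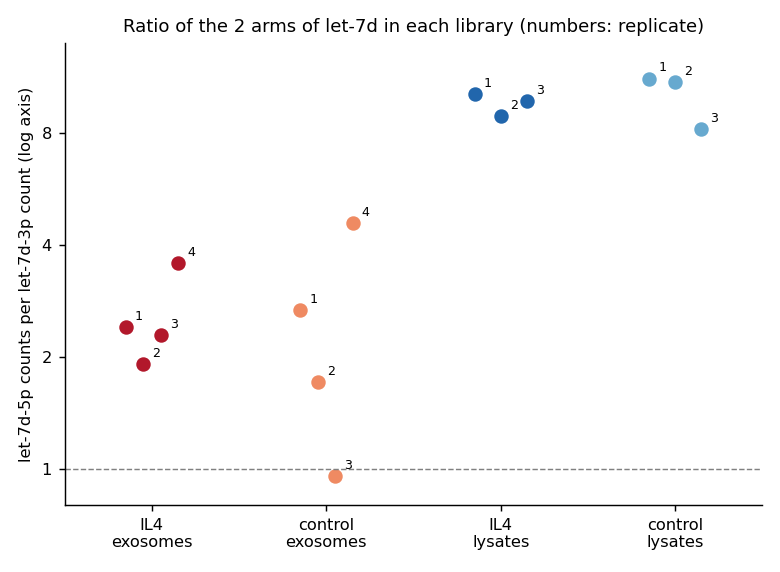
Counts of let-7d-5p per count of let-7d-3p (y axis, log scale) in each library of the 4 groups (x axis); small numbers beside the points are replicate numbers and the dashed line marks equal counts of both arms. The 8 exosome libraries lie between 0.957 and 4.59 and the 6 lysates between 8.20 and 11.2.

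Whether IL4 changed the family in exosomes was tested within the 8 exosome libraries. There, 8 members were tested (let-7j and let-7k were below the filter) and 0 were called, against 0.549% of the 182 lines tested. None of the 8 had an unadjusted p under 0.05, against 12 of all 182 lines. The members' median log2 fold change was 0.14, against -0.09 over all tested lines. Estimates ran from -0.07 for miR-98-5p (95% confidence interval -0.64 to 0.50) to 0.33 for let-7f-5p (-0.44 to 1.10). For let-7b-5p the interval was -0.36 to 0.60, for let-7d-3p -0.32 to 0.65, for let-7i-5p -0.54 to 0.54 and for let-7a-5p -0.45 to 0.91. Differences inside these intervals were compatible with the data at this spread and depth. Within dates, let-7i-5p was lower in CPM with IL4 at 4 of 4 dates, as were 16.8% of the 405 lines with 10 or more counts, and miR-98-5p at 3 of 4, as were 24.9%. Higher at 3 of 4 dates were let-7a-5p, let-7b-5p, let-7d-5p and let-7f-5p, as were 15.3% of those lines, and let-7k, on 1 to 6 counts a library with IL4, was higher at 4 of 4, as were 7.16%. CPM scaling put the median of all tested lines at -0.25.

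The same question was put to the lysates, where depth was greater. The test covered 9 members (let-7k was below the filter) and called 0 of them, against 7.22% of the 443 lines tested, of which 5.87% were higher and 1.35% lower. None had an unadjusted p under 0.05, against 63 of all 443 lines, and the members' median log2 fold change was -0.12, against 0.00 over all tested lines. Estimates of the abundant members ran from -0.23 for let-7f-5p (95% confidence interval -0.54 to 0.08) to 0.07 for let-7d-3p (-0.31 to 0.45). The interval was -0.43 to 0.11 for let-7a-5p, -0.43 to 0.20 for let-7b-5p, -0.39 to 0.29 for let-7g-5p and -0.59 to 0.25 for let-7i-5p. In CPM, 8 members (let-7a-5p, let-7b-5p, let-7d-5p, let-7f-5p, let-7g-5p, let-7i-5p, let-7j and miR-98-5p) were lower with IL4 at all 3 dates, as were 29.9% of the 768 lines with 10 or more counts, and let-7f-5p and let-7g-5p were lower without overlap, as were 12.8% of those lines. No member was higher without overlap, as 6.12% of the lines were. Scaling by library size, as CPM does, moved the median of all tested lines to -0.19.

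The IL4 effect in exosomes and that in lysates were compared directly as an interaction over 14 libraries. Of 9 tested members 0 were called in edgeR's quasi-likelihood test, against 0.0% of the 338 lines tested, and 0 had an unadjusted p under 0.05, against 14 of all 338 lines. DESeq2 and limma's voom also called 0 members. The value farthest from 0 among the abundant members was that of let-7f-5p, at 0.73 (SE 0.442, unadjusted p = 0.119).

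The remaining lines, let-7j and let-7k, were near the limit of detection. Over all libraries of a group let-7k had 9 counts in IL4 exosomes, 1 in control exosomes, 7 in IL4 lysates and 17 in control lysates. In CPM that is 19.99, 13.4, 14.6 and 13.03 in IL4 exosomes and 0, 0, 5.02 and 0 in control exosomes. The groups did not overlap, as was so for 2.47% of lines in that direction, but each library that was not at 0, except IL4 exosome replicate 3, rests on 1 count. A count of 0 in control exosomes allows a level of up to 105.6 CPM in replicate 1, 55.2 CPM in replicate 2 and 82.0 CPM in replicate 4, all above the IL4 values, so the difference was not detectable at this depth. PCR reads are not independent molecules, and such limits cover counting error only. The let-7k counts came to 0.0905% of those of let-7b-5p, the sequence 1 base away, in IL4 exosomes, 0.0194% in control exosomes, 0.00743% in IL4 lysates and 0.0122% in control lysates.

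For let-7j the summed counts were 4 in IL4 exosomes, 4 in control exosomes, 69 in IL4 lysates and 108 in control lysates. The lysate level was 4.61, 5.84 and 3.70 CPM with IL4 and 5.22, 7.51 and 4.90 CPM in controls, with overlap. These let-7j counts amounted to 0.131% of those of let-7i-5p in IL4 exosomes, 0.221% in control exosomes, 0.0465% in IL4 lysates and 0.0474% in control lysates. The exosome-to-lysate difference of let-7j was not called in IL4 macrophages (0.00, SE 2.90) or in control macrophages (0.67, SE 1.21). Of 1679 mature sequences in RefSeq, 14.2% hold the motif GGAG on the mature strand, which has been reported in miRNAs sorted into exosomes; among the members let-7k alone holds it, and its relative let-7e-5p does too.

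The relatives with the same seed were examined separately. For let-7c-5p, known for promoting alternative activation of macrophages, the level was 29037 ± 8765 CPM in IL4 exosomes and 24202 ± 10059 CPM in control exosomes (SD, n = 4 each), and 28841 ± 2420 CPM in IL4 lysates and 26241 ± 3441 CPM in control lysates (n = 3 each). In exosomes over lysates its log2 fold change was -0.66 in IL4 macrophages (adjusted p = 0.101) and -0.89 in control macrophages (adjusted p = 0.0302). For let-7e-5p it was 1.15 in IL4 macrophages (adjusted p = 0.0410) and -0.07 in control macrophages (adjusted p = 0.898). In IL4 lysates let-7e-5p was lower than in control lysates, at 500.5 ± 106.01 CPM against 1446 ± 241.6 CPM (log2 fold change -1.32, SE 0.287, adjusted p = 0.0310), in contrast to the 9 tested members, of which 0 were called. miR-1961, which has the same seed, and miR-202-3p had no line among the counted miRNAs and could not be analysed.

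Of the 10 lines for the opposite arms of let-7 and miR-98 hairpins, between 1 and 9 were tested, and 0 were called in any of the comparisons of exosomes with lysates or of IL4 with control. The most abundant, a joined line of let-7a-1-3p and let-7c-2-3p, was at 345.6 ± 61.9 CPM in IL4 exosomes and 478.6 ± 178.7 CPM in control exosomes, against 183.2 ± 45.2 CPM in IL4 lysates and 274.5 ± 124.3 CPM in control lysates. No line of that list reached 1317 CPM in any library, the lowest level of let-7d-3p. In exosomes over lysates 5 lines of the list were tested, with SE of 0.342 to 0.878. Of all tested lines 49.4% were called there in IL4 macrophages and 50.9% in control macrophages. In each treatment 3 of the 5 were above 0. In control macrophages miR-98-3p was at 0.77 (SE 0.567) and let-7b-3p at 0.74 (SE 0.602), where the called let-7d-3p was at 0.73. Among the 5 miRNAs of the miR-99, miR-100 and miR-125 families, whose genes neighbour let-7c-1, let-7e and let-7a-2, miR-99a-5p and miR-125b-5p were higher with IL4 in lysates (1.03 and 1.30 on the log2 scale), and 0 of 5 were called with IL4 in exosomes. Over all tested lines 5.87% were called higher with IL4 in lysates and 0.549% were called with IL4 in exosomes. In exosomes over lysates 2 of 5 were higher and 1 lower in IL4 macrophages, where 30.2% of all tested lines were higher and 19.2% lower. In control macrophages 1 was higher and 1 lower, where 29.3% of all tested lines were higher and 21.6% lower. Higher in both was miR-100-5p, a neighbour of let-7a-2, at 552.0 ± 465.1 CPM in IL4 exosomes and 5330 ± 5358 CPM in control exosomes, against 21.02 ± 3.77 CPM in IL4 lysates and 12.6 ± 1.63 CPM in control lysates.

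The lines whose pattern over the 14 libraries was nearest to the summed level of the 10 lines were miR-15b-5p, miR-103-3p, miR-26b-5p, miR-340-3p and miR-142a-3p. Likeness was the root mean square distance between log2(CPM + 10) profiles, each centred on its own mean, over 329 lines. It was 0.234 for miR-15b-5p and 0.294 for miR-142a-3p on the log2 scale. Among the members it was 0.131 for let-7a-5p and 0.199 for let-7f-5p, which form most of the sum, 0.318 for let-7i-5p, 0.808 for let-7b-5p and 1.07 for let-7d-3p.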

How the data were processed

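The deposited file is 1 table of raw counts per mature miRNA with a column for each of 14 libraries. Columns were assigned to samples through the titles, leaving 0 unused. Per the labels' protocols, an OptiPrep gradient yielded the exosomes and a PerkinElmer NextFlex kit the libraries. The labels repeat this protocol for the lysate samples and give no other preparation for them, so what they hold is known only from their titles and cell type labels. Per the submitters' processing notes, cutadapt and mm10 were used. No aligner, counting program, annotation of miRNAs or strand setting is named: not given in the sources used here. No replicate pair of a group was identical within counting noise (the lowest chi-square over its degrees of freedom was 20.98, with reads taken as independent, which PCR reads are not), so each library was counted once.

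CPM are counts scaled by a library's total. Fold changes and p-values come from edgeR 4.0.16 in R 4.3.3 (filterByExpr, TMM, glmQLFit, glmQLFTest, two-sided), with Benjamini-Hochberg adjustment over every line tested and calls at an adjusted p of 0.05. Each compartment had its own fit of IL4 against control, while exosomes against lysates and the interaction came from 1 fit of 14 libraries. A standard error is the size of the log2 fold change divided by the root of its F statistic, so it restates the test. Biological coefficients of variation were 0.493 (exosomes), 0.350 (lysates) and 0.480 (joint fit). The let-7d arm ratio used a pseudocount of 0.5 and exact permutation tests. The fits were tested on simulated data.

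The date in the titles pairs each IL4 library with the control library of its date within a compartment. Deviations of same-date libraries had correlations of 0.353, 0.227, 0.582 and 0.240 for exosome replicates 1 to 4. For lysate replicates 1 to 3 they were 0.717, 0.357 and 0.588. Libraries of different dates gave -0.586 to 0.281 in exosomes and -0.605 to 0.295 in lysates. The 0.281 was that of IL4 exosome replicate 2 with control replicate 3, above the value for its own date. The date entered as an alternative. Alternatives changed the scaling, the filter, the tool (DESeq2 1.42.0, limma 3.58.1), the libraries in the fit and the pseudocount. All 10 members are named in every comparison, and relatives, opposite arms, neighbours and markers by list. The members and lists were chosen with earlier results of these data known. Loci come from RefSeq and GENCODE on GRCm38.p6.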

Additional observations from a re-analysis of the deposited data

Results flagged for a closer look

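In the 4 IL4 exosome libraries let-7j reached 39.97 CPM in replicate 1, a level far from the others, which were at 0, 4.86 and 0 CPM. In the 4 control exosome libraries let-7k reached 5.02 CPM in replicate 3 while the other replicates were at 0. Both values rest on few counts, 2 for let-7j and 1 for let-7k. The distance of the highest or lowest library from the rest was checked in 24 groups of libraries. For normally distributed values chance marks about 1 in 20 of them. That rate does not hold where several libraries are at 0, as for both lines here. With all other libraries at 0, as for let-7k, any count is marked.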

How the results depend on the processing

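Among the members, 0 were called for IL4 in exosomes, in lysates or in the interaction under any alternative run, and the replicate block, with the date as a term, also gave 0 calls in each. No called value of a member changed sign, and 48 of 682 values changed sign without being called either way. In exosomes over lysates, let-7i-5p and miR-98-5p kept their calls in both treatments under 14 of 14 alternatives, and let-7f-5p and let-7g-5p in control macrophages. The let-7b-5p call in IL4 macrophages ended without exosome replicate 1 of both groups (0.54, adjusted p = 0.0587), and let-7a-5p passed there with no filter (-0.82, adjusted p = 0.00263). Library-size scaling left 4 calls of members in IL4 macrophages in place of 7. Leaving out 1 library gave 5 to 7 calls of members in IL4 macrophages, where 127 to 169 of all tested lines were called. In control macrophages it gave 6 to 8 calls of members, where 142 to 172 of all tested lines were called. Over all lines, IL4 calls in exosomes numbered 1, against 0 with library-size scaling, 12 with no filter, 6 with DESeq2 and 0 to 2 without 1 library. In lysates they numbered 32, against 14 with library-size scaling, 50 with the replicate block and 4 in the fit of all 14 libraries. They were 2 to 34 without 1 library, at 7 and 10 without IL4 replicates 2 and 3 and 2 and 13 without control replicates 2 and 3. The interaction gave 3 calls with no filter, none a member. The let-7d arm difference between exosomes and lysates of IL4 macrophages was -2.13 to -1.83 without 1 library, with exact permutation p of 0.0667 to 0.1, the smallest that the fewer libraries allow. The family's share was 26.0% in IL4 exosomes, 35.1% in IL4 lysates and 39.1% in control lysates without miR-21a-5p, and 30.6% in control lysates with let-7c-5p and let-7e-5p added. Exosome depth limits let-7j, let-7k and most opposite arms. The causes of these changes were not tested.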
